A study of Mus musculus with 4 samples.

Results

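The IL-1 receptor family, its agonist IL-1α and its antagonists were followed in immortalized macrophages without or with the kinase MK2. The genes were chosen by name and not by a rule on their values, but with earlier results of these data known. They are 10 members among the 55356 genes of the deposited table, and each of the 10 symbols was found once. The members are the agonist *Il1a*, the receptor chains *Il1r1*, *Il1rap*, *Il1rl1* and *Il1rl2*, the decoy and inhibitory receptors *Il1r2* and *Sigirr*, the soluble inhibitors *Il1rn* and *Il18bp*, and the adaptor *Tollip*. The cells were immortalized macrophages grown from the bone marrow of *MK2*-KO mice. A retroviral vector gave them *GFP* alone (i*MK2*-KO +*GFP*, +*GFP* below) or put *MK2* back (i*MK2*-KO +*MK2*, +*MK2* below), and GFP-positive cells were sorted. All cells therefore carry the *MK2* deletion, although the labels call the rescued cells wt, and each genotype is 1 line. Cells were left untreated (UT) or received recombinant murine IL-1α (5 ng/mL, 1 h), and 1 library was sequenced for each of the 4 conditions.

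IL-1α and IL-1β bind the receptor chain IL-1R1, which then recruits the accessory chain IL-1RAP and signals through MyD88 and IRAK kinases to NF-κB and MAP kinases. The system is restrained at several levels. IL-1RA, the product of *Il1rn*, occupies IL-1R1 without recruiting the accessory chain, and IL-1R2 binds IL-1 but lacks the cytoplasmic signaling domain. SIGIRR and TOLLIP act as inhibitors of signaling inside the cell, and IL-18BP captures IL-18. ST2 (*Il1rl1*) and the IL-36 receptor (*Il1rl2*) are the binding chains for IL-33 and IL-36, and they share IL-1RAP with IL-1R1.

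Values are normalized counts, that is, reads per gene divided by a size factor for each library and rounded. They summed to between 24891906 and 25733071 per library. *Mapkapk2*, the gene of MK2, stood at 561 in UT and 1585 in IL-1α-treated +*GFP* cells, far below the 38357 and 38141 of +*MK2* cells, as the labels have it. All 8 macrophage markers examined, among them *Cd68*, *Csf1r* and *Spi1*, were above the detection floor of 3 counts in each library, with summed levels of 112976 to 123245, most of which came from *Lyz2* and *Csf1r*. Some of these markers were lower in both +*GFP* than in both +*MK2* libraries. *Mertk* had 421 and 364 against 1093 and 1168 normalized counts, *Fcgr1* 1226 and 1194 against 2108 and 2216, and *Adgre1* 3978 and 4140 against 6832 and 6330. By smaller margins, *Cd68* had 15734 and 16085 against 16876 and 16660, and *Itgam* 3750 and 3786 against 4186 and 4304. Others of the list were higher in both +*GFP* libraries, *Csf1r* with 23227 and 27561 against 20290 and 21305 and *Spi1* with 4782 and 5524 against 4551 and 4663. *Lyz2* had 59858 and 64591 against 60184 and 62671. Markers of mast cells, lymphocytes and fibroblasts summed to between 0 and 9, with *Kit*, *Cpa3* and *Col1a1* at 0 in each library. Neutrophil markers summed to between 5 and 8, with *Ly6g*, *S100a9* and *Mpo* at 0. Of 4 dendritic cell markers only *Zbtb46* was above the floor, with 23 and 18 normalized counts in +*GFP* cells against 104 and 115 in +*MK2* cells, while *Flt3* and *Siglech* were at 0. The part of *Zbtb46* in the differences between the lines was not tested. With 1 library per condition, differences could not be set against replicates, and p-values are left out. The 95% intervals below treat 1 normalized count as 1 read and cover counting error only. In bulk RNA, fewer cells with a transcript and less of it per cell cannot be told apart.

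The members fell into 3 ranges of abundance. *Il1rl2* was at or under the floor in every library, with 0, 1, 2 and 2 normalized counts in the order UT and IL-1α +*GFP*, then UT and IL-1α +*MK2*, the order used throughout. The floor of 3 is the limit set here for a count of 0, whose exact 95% interval reaches 3.69. *Il1r2* (12, 10, 1 and 0) and *Sigirr* (13, 10, 6 and 6) stood near the floor, so that 2 of the 10 members reached it in any library, *Il1rl2* and *Il1r2*. The other 7 members had a mean of at least 10 and were compared between libraries, as were all 12483 genes with such a mean. Levels of different genes were set side by side per 1000 bases of coding sequence, as a mean over the libraries. On this scale *Tollip* was highest at 3107 normalized counts per 1000 coding bases, followed by *Il1rn* at 2373, and their ranges over the 4 libraries overlapped. *Il1rl1* (234) and *Il1rap* (188) came next, each with a range clear of its neighbours. *Il1a* (75.6) and *Il18bp* (68.7) had overlapping ranges, and *Il1r1*, the signaling receptor itself, stood at 22.4. *Sigirr* (7.13), *Il1r2* (4.67) and *Il1rl2* (0.726) were the lowest, each overlapping the next. Per length of the whole transcript, *Il1rap* and *Il1rl1* exchanged places.

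**Figure D1:**
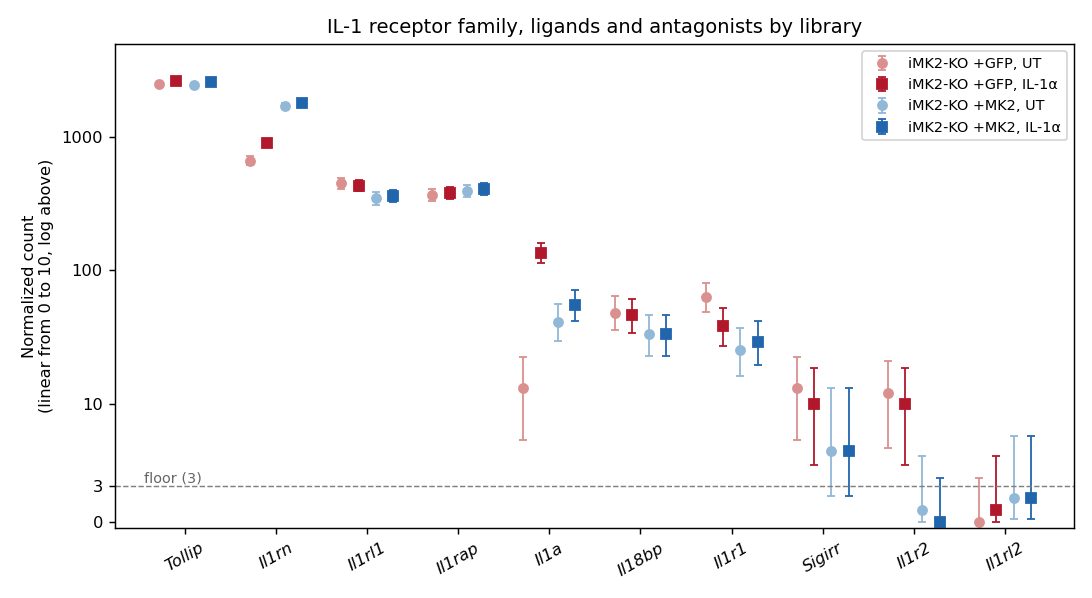
Normalized counts (vertical axis, linear from 0 to 10 and logarithmic above) of the 10 members in the 4 libraries; points are single libraries, bars are exact Poisson 95% intervals for counting error, and the dashed line is the floor of 3 counts. *Il1rn* sits lower in both red +*GFP* libraries, *Il1a* runs from 13 to 136 within that line, and *Il1rl2* lies at or under the floor throughout.

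*Il1a* and *Il1rn*, the agonist and its competitor at the receptor, carried the clearest differences, so their proximal promoters are shown. They are the 250 bases before the annotated starts in RefSeq (build GRCm38.p6), read 5′ to 3′ on the strand of the gene. The *Il1a* window is chr2:129309973-129310222 on the minus strand, and the *Il1rn* windows, at starts 1 and 3 of its 3 listed starts, are chr2:24336610-24336859 and chr2:24345121-24345370 on the plus strand. Capitals mark TGANTCA, the AP-1 motif, and TATAAA, the TATA box, searched on both strands.
Il1a: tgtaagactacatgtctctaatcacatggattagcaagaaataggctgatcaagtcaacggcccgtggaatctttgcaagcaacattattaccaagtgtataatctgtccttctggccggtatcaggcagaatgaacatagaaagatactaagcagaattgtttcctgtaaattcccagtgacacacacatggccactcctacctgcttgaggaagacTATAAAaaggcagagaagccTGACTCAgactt
Il1rn, start 1: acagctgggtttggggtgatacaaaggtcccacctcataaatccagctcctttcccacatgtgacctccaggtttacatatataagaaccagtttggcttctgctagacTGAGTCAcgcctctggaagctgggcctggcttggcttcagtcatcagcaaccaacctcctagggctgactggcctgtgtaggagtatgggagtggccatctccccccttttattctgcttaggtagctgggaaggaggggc
Il1rn, start 3: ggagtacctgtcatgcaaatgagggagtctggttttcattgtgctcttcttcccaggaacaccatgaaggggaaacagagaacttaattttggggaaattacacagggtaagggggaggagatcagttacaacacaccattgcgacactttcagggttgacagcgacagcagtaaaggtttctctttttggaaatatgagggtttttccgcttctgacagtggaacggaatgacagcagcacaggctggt

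The *Il1a* window held TATAAA from base -32 and an AP-1 match from base -12, counted back from the start. The window of *Il1rn* start 1 held an AP-1 match from base -141, and that of start 3 held none of these motifs. TGANTCA is present in 6.75% and TATAAA in 12.4% of all 32851 promoter windows of this length. The NF-κB consensus motif, found in 7.25% of windows, had no match in the windows of *Il1a* and *Il1rn*, which says only that these letters are not in these bases. Promoter entries were found for 9 of the 10 members, and among them the NF-κB consensus matched once, in a window of *Il1r1*.

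*Il1a*, whose product is both a cytokine and a nuclear protein, lies on chromosome 2 from 129141530 to 129151892 in the coordinates of the deposited table, which do not match the build of the promoter windows. It had 13 normalized counts in UT and 136 in IL-1α-treated +*GFP* cells, against 41 and 55 in +*MK2* cells. The lowest and the highest of the 4 libraries thus both came from the +*GFP* line. In UT cells it was lower without MK2 by a log2 ratio of -1.58 (interval -2.68 to -0.73), computed after adding a pseudocount of 1. After IL-1α it was higher without MK2, at 1.29 (0.84 to 1.79). The comparison of the lines therefore changed its sign with treatment, beyond counting error on both sides. Within the lines, *Il1a* was 10.5-fold higher after IL-1α in +*GFP* cells (136 over 13), and the log2 ratio with the pseudocount was 3.29 (2.56 to 4.33). In +*MK2* cells the log2 ratio was 0.42 (-0.19 to 1.04), within counting error. The responses differed by 2.88 on the log2 scale, and this difference was not tested. *Gm14023*, which overlaps *Il1a*, had 7, 8, 2 and 7 normalized counts.

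*Il1rn* (chromosome 2, 24226865 to 24241506) encodes secreted and intracellular forms of the receptor antagonist, which gene-level values do not separate. It had 663 and 897 normalized counts in +*GFP* cells and 1705 and 1803 in +*MK2* cells. Both +*GFP* libraries were below both +*MK2* libraries, as they were for the macrophage markers *Mertk*, *Fcgr1* and *Adgre1* and, by smaller margins, *Cd68* and *Itgam*. For the markers *Csf1r* and *Spi1* both were above, and *Lyz2* showed neither order. The part of these markers in the *Il1rn* difference was not tested. The log2 ratio of +*GFP* to +*MK2* cells was -1.36 (-1.49 to -1.23) in UT cells and -1.01 (-1.12 to -0.89) after IL-1α. After IL-1α it was higher by 0.44 (0.29 to 0.58) in +*GFP* cells. In +*MK2* cells the value was 0.08 (-0.02 to 0.18), within counting error. By quantitative PCR, the paper reports no differences in *Il1rn*, *Il1r1* and *Il1r2* between primary macrophages of wild-type mice and of mice lacking both MK2 and MK3. Those cells are not the lines compared here.

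Antagonist and agonist were also set against each other within each library, a ratio chosen after the values had been seen. It does not depend on the scaling of the libraries and is compared only between libraries, since it is not corrected for gene length. *Il1rn* had 51.0 (29.6 to 96.3) normalized counts per count of *Il1a* in UT +*GFP* cells, and this ratio was 6.60 (5.50 to 7.96) once IL-1α was given. In +*MK2* cells the ratio was 41.6 (30.5 to 58.2) and 32.8 (25.1 to 43.7). The IL-1α-treated +*GFP* library was the only one whose interval was clear of the other 3. With *Il1b*, the gene of the second agonist of IL-1R1, added to *Il1a*, the ratio was 11.1 (8.48 to 14.6) and 0.419 (0.387 to 0.453) in +*GFP* cells. It was 30.4 (23.3 to 40.5) and 16.9 (13.9 to 20.7) in +*MK2* cells. On this sum the ratio was lower in +*GFP* than in +*MK2* cells in both treatments, with intervals that did not overlap. *Il1b*, which is not a member, gave 47 of the 60 counts of the sum in UT +*GFP* cells and 2007 of 2143 after IL-1α. In +*MK2* cells it gave 15 of 56 and 52 of 107. With *Il1a* alone the intervals of the UT lines overlapped.

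**Figure D2:**
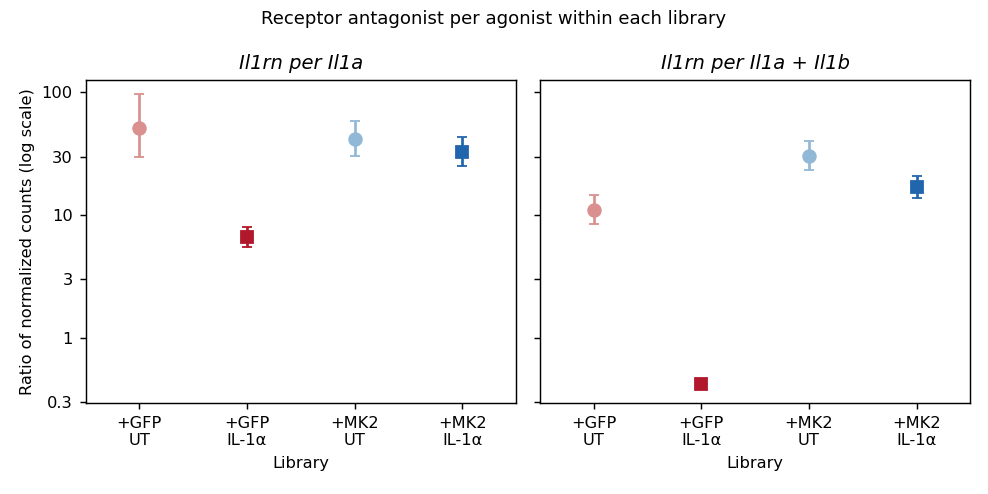
Ratio of *Il1rn* normalized counts to those of *Il1a* (left) and of *Il1a* plus *Il1b* (right) in each library, on a logarithmic axis and not corrected for gene length; points are single libraries and bars are Clopper-Pearson 95% intervals for counting error. The IL-1α-treated +*GFP* library is the lowest in both panels, at 6.60 and 0.419.

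The signaling receptor *Il1r1* (chromosome 1, 40264240 to 40356417) had 63, 38, 25 and 29 normalized counts. The UT +*GFP* library was the highest and the other 3 lay close together. Between the UT lines *Il1r1* was higher without MK2, with a log2 ratio of 1.30 (0.64 to 2.06). After IL-1α the ratio was 0.38 (-0.35 to 1.14), so that a difference was not detectable at this depth. Within the +*GFP* line *Il1r1* was lower after IL-1α, at -0.71 (-1.35 to -0.13), while the value in +*MK2* cells was 0.21 (-0.61 to 1.05). With 0.7 reads per normalized count the upper end of the +*GFP* interval was -0.0031, only just below 0.

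*Il1rap* (chromosome 16, 26400454 to 26548867), the accessory chain shared by the receptors for IL-1, IL-33 and IL-36, was nearly level. It had 365, 380, 393 and 409 normalized counts, and the 4 log2 ratios lay between -0.11 and 0.06, each within counting error. *Il1rl1* (chromosome 1, 40468730 to 40504575), which encodes both membrane-bound and soluble ST2, had 450, 433, 346 and 360. Both +*GFP* libraries were above both +*MK2* libraries. The log2 ratio between the lines was 0.38 (0.17 to 0.59) in UT cells and 0.27 (0.06 to 0.47) after IL-1α, and the latter came within counting error when the libraries were scaled to *Gapdh* (0.16, -0.04 to 0.37). The mast cell markers named above, of a cell type known for high *Il1rl1*, were at or near 0. The source of the *Il1rl1* difference was not tested.

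The decoy receptor *Il1r2* (chromosome 1, 40113239 to 40164391) was above the floor only in +*GFP* cells. The UT counts of 12 and 1 gave a log2 ratio of 2.70 (0.83 to 9.0). After IL-1α the 10 counts in +*GFP* cells were 3.33-fold the floor of 3 set for the 0 in +*MK2* cells, and the counting interval of the log2 ratio, which covers the error of both values, lay above 1.16. The UT ratio was 1.5 with a pseudocount of 5, since it rests on few reads. *Sigirr* (chromosome 7, 140671088 to 140680485), the inhibitory receptor, had 13 against 6 normalized counts in UT cells and 10 against 6 after IL-1α, with intervals that included 0. *Il1rl2* (chromosome 1, 40363770 to 40406722) gives no fold in any comparison.

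Of the remaining members, the IL-18 binding protein gene *Il18bp* (chromosome 7, 101664092 to 101667897) had 48, 46, 33 and 33 normalized counts. Its log2 ratios between the lines, 0.53 (-0.13 to 1.23) and 0.47 (-0.20 to 1.17), were within counting error. The end of *Il18bp* overlaps that of *Numa1*, whose 4970, 5030, 3846 and 3810 normalized counts also stood higher in +*GFP* cells. *Tollip* (chromosome 7, 141428550 to 141472244) was the most even member, with 2508, 2659, 2460 and 2589. Its ratios between the lines were 0.03 (-0.05 to 0.11) and 0.04 (-0.04 to 0.12). The response to IL-1α of 0.08 (0.0051 to 0.16) in +*GFP* cells only just excluded 0 and came within counting error under each other scaling.

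The receptor genes *Il1r2*, *Il1r1*, *Il1rl2* and *Il1rl1*, are neighbours on chromosome 1, followed by *Il18r1* and *Il18rap*, which encode the IL-18 receptor chains. They lie within 478 kb. Among these 6 receptor genes, some at or under the floor lay between expressed ones. Between *Il1r1* and *Il1rl1* lay *Il1rl2*, at 2 or less, and between *Il1rl1* and *Il18rap* lay *Il18r1*, with 1, 1, 0 and 0 normalized counts. *Il18rap*, named after its values were seen, had 1198, 1245, 833 and 825, and it was higher in +*GFP* cells by 0.52 (UT) and 0.59 (IL-1α), beyond counting error. *Il1r2*, *Il1r1*, *Il1rl1* and *Il18rap*, the genes of this cluster above the floor in any library, had a larger value in +*GFP* than in +*MK2* cells in both treatments. For *Il1r1* after IL-1α this was within counting error, at 0.38 (-0.35 to 1.14), and *Il1r2* had 1 and 0 counts in +*MK2* cells. Among all genes compared, 30.8% in UT cells and 33.7% after IL-1α were higher in +*GFP* cells beyond counting error. That is a stricter limit than a larger value in both treatments, for which no share over all genes is given here. The shared direction in the cluster is therefore a description only.

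**Figure D3:**
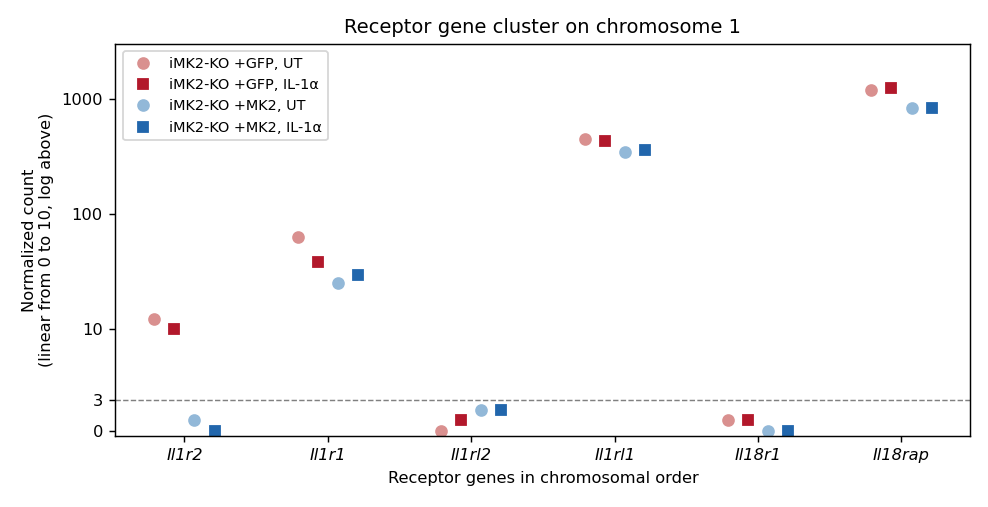
Normalized counts (vertical axis, linear from 0 to 10 and logarithmic above) of the 6 receptor genes of the chromosome 1 cluster in chromosomal order; points are single libraries and the dashed line is the floor of 3 counts. *Il1rl2* and *Il18r1* lie under the floor between expressed neighbours, and the red +*GFP* points are above the blue ones for the other 4 genes.

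Counted over the 7 members with a mean of at least 10, 3 differed at least 2-fold between the UT lines, *Il1r1* higher and *Il1a* and *Il1rn* lower in +*GFP* cells. Among all genes compared, 8.76% passed this limit, 3.5% higher and 5.26% lower. After IL-1α 2 members passed it, *Il1a* higher and *Il1rn* lower, against 9.71% of all genes, 4.15% higher and 5.56% lower. In the response of +*GFP* cells to IL-1α, *Il1a* alone passed, as a higher value, against 3.63% of genes (2.13% higher, 1.5% lower). In that of +*MK2* cells 0 members passed, against 1.87% (0.865% higher, 1% lower). Differences beyond counting error were common among all genes. In UT cells they covered 57.7% of genes (30.8% higher, 26.9% lower) and 4 of the 7 members, *Il1r1* and *Il1rl1* higher, *Il1a* and *Il1rn* lower. After IL-1α they covered 60% (33.7% higher, 26.3% lower) and 3 members, *Il1a* and *Il1rl1* higher and *Il1rn* lower. For the IL-1α response they covered 32.3% of genes (20% higher, 12.3% lower) and 4 members in +*GFP* cells, *Il1a*, *Il1rn* and *Tollip* higher and *Il1r1* lower. In +*MK2* cells they covered 19.6% of genes (11.4% higher, 8.23% lower) and 0 members. The members' shares of 4 of 7 and 3 of 7 between the lines thus stood near or below the background. The median log2 ratio of the 7 members was 0.03 in the UT comparison and 0.27 after IL-1α, beside 0.02 and 0.03 over all genes. For the responses it was 0.06 in +*GFP* and 0.07 in +*MK2* cells, beside 0.01 and 0.0083. The 4 comparisons share libraries and are not independent of each other.

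**Figure D4:**
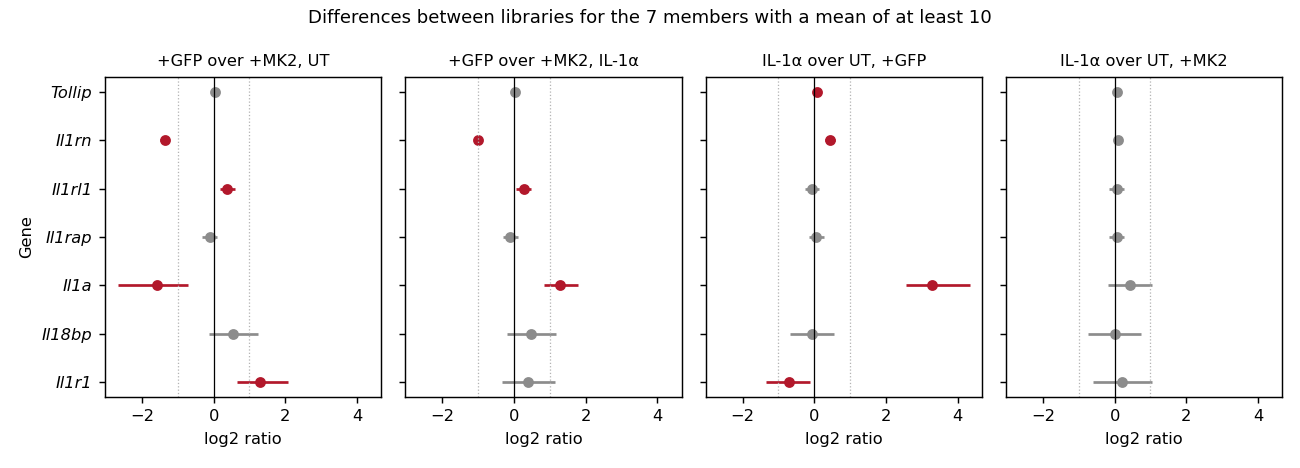
Log2 ratios (horizontal axis, pseudocount of 1) of the 7 members with a mean of at least 10 in the 4 comparisons; points are ratios of single libraries, bars are 95% counting intervals, red marks intervals that exclude 0 and dotted lines mark a 2-fold difference. *Il1a* changes sides between the UT (-1.58) and the IL-1α panel (1.29), and no member is red in the IL-1α response of +*MK2* cells.

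The pattern of *Il1a* over the 4 libraries was compared with that of all 10585 genes with a mean of at least 50, by the distance between log2 values centred on their mean. The nearest were *Cxcl10*, a chemokine (58, 522, 104 and 136 normalized counts, distance 0.71), *Rab20*, a small GTPase (102, 442, 245 and 249, distance 0.89), and *2900089D17Rik* (21, 82, 42 and 66, distance 1.00). Each had its lowest value in UT and its highest in IL-1α-treated +*GFP* cells, as *Il1a* did. No gene came within a distance of 0.5. For *Il1rn*, 178 genes did, the nearest being the complement receptor gene *C3ar1* (1983, 2638, 5268 and 5167, distance 0.079), *Cstf2t* (distance 0.12) and *Hivep2* (distance 0.12). The distance is not scaled for range, and log2 values spanned 3.29 for *Il1a* and 1.44 for *Il1rn*. The UT +*GFP* value of *Il1a* also rests on 13 counts. The numbers of near genes are therefore not comparable between *Il1a* and *Il1rn*. With 4 libraries, such likeness describes these values only.

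Other genes of the pathway were examined as lists. Of 8 further IL-1 family ligands, 6 were at or under the floor in every library, among them *Il33* and *Il36a*, which encode ligands of ST2 and of the IL-36 receptor. *Il1b* had 47, 2007, 15 and 52 normalized counts. It was thus higher in UT +*GFP* cells, where *Il1a* was lower, while both agonists were higher there after IL-1α. Of 4 further receptor genes 3 were at or under the floor. Among 13 signaling genes just downstream of the receptor (*Myd88*, the *Irak* genes, *Traf6*, *Map3k7*, *Tab* and *Peli* genes), 10 had a mean of at least 10 and none of these differed 2-fold in any comparison. Few genes did so in general, 8.76% between the UT lines and 9.71% after IL-1α. In the responses 3.63% did so in +*GFP* and 1.87% in +*MK2* cells. In UT cells 5 were higher and 1 lower in +*GFP* cells beyond counting error, where 57.7% of all genes were, with a median log2 ratio of 0.06. After IL-1α 6 were higher and 2 lower, against 60% of all genes, with a median of 0.19. In response to IL-1α 5 were higher and 0 lower in +*GFP* cells, against 20% and 12.3% of all genes. In +*MK2* cells 4 were higher and 0 lower, against 11.4% and 8.23%.

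Of 7 genes for processing and release of IL-1 family cytokines, 6 had a mean of at least 10. Beyond counting error, 1 was higher and 2 were lower in UT +*GFP* cells (57.7% of all genes) and 2 and 2 after IL-1α (60%). In the IL-1α response of +*GFP* cells 1 was higher and 0 lower, against 20% and 12.3% of all genes. In that of +*MK2* cells 0 were higher and 0 lower, against 11.4% and 8.23%. *Gsdmd*, the gene of the pore-forming protein gasdermin D through which mature IL-1β leaves the cell, had 0, 1, 259 and 216 normalized counts. With the 0 of UT +*GFP* cells set to the floor of 3, the value in UT +*MK2* cells was 86.3-fold higher, and the counting interval of the log2 ratio, which also covers the error of the 259 counts, lay below -6.12. The log2 ratio after IL-1α was -6.76 (-13.1 to -5.26). *Casp4*, which encodes the inflammatory caspase-11, had 77, 224, 99 and 115. It was higher after IL-1α by a log2 ratio of 1.53 (1.16 to 1.93) in +*GFP* cells, against 0.21 (-0.18 to 0.62) in +*MK2* cells.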

How the data were processed

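Gene expression was measured by RNA sequencing in 4 libraries, 1 per condition, and libraries were assigned to conditions by the sample labels. The authors deposited 1 score per gene and library, named DESeq2 normalized counts in the study in whole numbers only. The column names are those of salmon output, and versions are not given in the sources used here. The labels describe poly(A) selection and paired reads, whereas the paper describes ribo-depletion and single reads. Reads per library before normalization are unknown. The submitters' processing notes name GRCm38, but only 1494 of 52080 gene IDs shared with a GRCm38 annotation (GENCODE) had the same start and end, and none of the members did. Deposited coordinates are therefore given without a build, and gene lengths were taken from that annotation by gene ID, from the transcript with the longest coding sequence.

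Values were used as deposited, without a count model. Log2 ratios used a pseudocount of 1. Intervals are exact Clopper-Pearson 95% intervals of the share of both values. Calls of a 2-fold difference were limited to genes averaging 10 or more over the libraries. After values had been seen, a value above 3 in either library was also required. Alternatives were 3 other scalings, pseudocounts of 0.5 and 5, other minimum means, floors of 1 and 10, and 1.3 or 0.7 reads per normalized count. The rule for named genes covered the members, pathway genes that differed 2-fold, *Il1b*, and the 3 genes nearest in pattern to each member averaging 50 or more whose log2 values spanned 1 or more. Members and lists were chosen with earlier results of these data known. Intervals and scaling were tested on simulated data. Python 3.11.15, SciPy 1.17.1 and matplotlib 3.10.9 were used.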

Additional observations from a re-analysis of the deposited data

Results flagged for a closer look

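*Il1r1* moved in opposite directions in the lines after IL-1α, with a log2 response of -0.71 in +*GFP* cells and 0.21 in +*MK2* cells. The latter was within counting error, and no test of this contrast was made. *Il1rl1* also had responses of opposite sign, -0.055 in +*GFP* and 0.057 in +*MK2* cells, both within counting error, and this difference was not tested either.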

How the results depend on the processing

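Scaling by trimmed means (TMM), library totals or *Gapdh*, pseudocounts of 0.5 and 5, and 1.3 or 0.7 reads per normalized count left the sign of each member difference beyond counting error as it was. The log2 ratio of *Il1a* lay between -1.64 and -1.35 in UT cells and between 1.19 and 1.30 after IL-1α, and that of *Il1rn* between -1.42 and -1.36 and between -1.11 and -1.0. The ratio of *Il1r2*, near the floor, ranged from 1.5 to 3.06 in UT cells. With scaling to *Gapdh*, *Il1rap* after IL-1α became lower in +*GFP* cells beyond counting error, at -0.21. With 1.3 reads per normalized count, 1 member (*Tollip*) instead of 0 responded beyond counting error in +*MK2* cells. Without a minimum mean, 5 instead of 3 members differed 2-fold between the UT lines. The added ones were the low *Il1r2* (12 against 1) and *Sigirr* (13 against 6). After IL-1α 3 instead of 2 members differed 2-fold. The number of other pathway genes that did so was then 4 instead of 2 in UT cells, 4 instead of 2 after IL-1α, and 3 instead of 1 in the response of +*MK2* cells. With a minimum mean of 50, which *Il1r1* did not reach, 2 instead of 3 members differed 2-fold between the UT lines. Beyond counting error there were then 3 instead of 4 members in UT cells and 3 instead of 4 in the +*GFP* response. No share over all genes at these other minimum means is given here, so these counts describe the settings only. With a floor of 10, 3 instead of 2 members reached it in any library. Lengths of whole transcripts were an alternative chosen after seeing the data. Values under about 20 limit what can be said of *Il1r2*, *Sigirr* and *Il1rl2*. They also limit the UT comparison, the +*GFP* response and the UT +*GFP* ratio of *Il1a*, which rest on 13 counts. No paired analysis was possible because each group has 1 library.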

Other observations

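The accessory chain and the binding chain of the IL-1 receptor differed in proportion between UT +*GFP* and +*MK2* cells. Since *Il1rap* was nearly level, this mainly repeats the *Il1r1* values given above. *Il1rap* had 5.79 (4.42 to 7.70) normalized counts per count of *Il1r1* in UT +*GFP* cells, a ratio that was 10.0 (7.15 to 14.4) once IL-1α was given. In +*MK2* cells it had 15.7 (10.5 to 24.6) and 14.1 (9.67 to 21.3). The interval of the UT +*GFP* library was clear of those of both +*MK2* libraries and overlapped that of the IL-1α-treated +*GFP* library. The decoy *Il1r2* had 0.190 (0.093 to 0.357) and 0.263 (0.117 to 0.538) counts per count of *Il1r1* in UT and IL-1α-treated +*GFP* cells. In +*MK2* cells it had 0.04 (0.00097 to 0.244) and 0 (0 to 0.136), and the intervals of the lines overlapped in both treatments. These ratios are not corrected for gene length and were chosen after the values had been seen.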
